A study of Mus musculus with 2 samples.

Results

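Footprints that lie outside called peaks were examined in DNase-seq data of mouse spleen. DNase I is a nuclease that cuts open chromatin more often than closed chromatin. A footprint is a short stretch that is cut less than its open surroundings. Both libraries came from spleen tissue of male B6CASTF1/J mice aged 4 days, first-generation hybrids of C57BL/6J and CAST/EiJ, with no treatment named. They are biological replicates 1 and 2 of a single group, so no conditions were compared. A footprint was taken as outside where it shared no base with a peak of the longer, less strict peak list of either library. This held for 23611 of 217159 footprints in replicate 1 (10.9%) and 33009 of 252901 in replicate 2 (13.1%). The mean share was 11.96% ± 1.54 (SD, n = 2). Membership was thus set by the authors' peak and footprint calls, and being outside a peak is not itself a result. With 2 libraries, an exact two-sided permutation test cannot give a p under 0.5, so each comparison is given as its value in both libraries.

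Most bound stretches of an accessible region are expected within its peak, since a peak is called where cutting is densest. The borders of an open region are also cut, at a lower rate, and a footprint caller that uses the wider cut-rate track can mark stretches there. Promoters of widely used genes hold a stretch free of nucleosomes, flanked by positioned nucleosomes, and many are rich in CpG dinucleotides. Sequence-specific factors such as the SP, ETS, NRF1 and YY1 proteins have binding sites in such promoters. At this age the mouse spleen still makes red blood cells and holds developing B cells.

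Sequences of outside footprints with a motif match are shown first, because these words were more frequent there than in the open bases around them. Each was found in both libraries and lies close to a start site. Capitals mark the matched word, with 10 bases on each side in lower case. All are from GRCm38, read 5′ to 3′ on the strand given.
NRF1 at Fdxacb1, chr9:50768429-50768457, plus strand: agaacctaaaGCGCCTGCGcgaacgaggt
NRF1 at Dapk3, chr10:81182997-81183025, plus strand: tgcgctgtcaGCGCATGCGtagatgccgt
CRE at Ccdc130, chr8:84270344-84270371, plus strand: gccctctcccTGACGTCAcgcctccacc
CRE at Mpzl3, chr9:45055155-45055182, plus strand: actcccgacaTGACGTCActtccggcac
YY1 at Alg11, chr8:22060714-22060741, plus strand: agggtgggatAAGATGGCggcggacact
YY1 at Pcm1, chr8:41239757-41239784, plus strand: atgaggtcctAAGATGGCggtggctgcg
SP at Abhd18, chr3:40894254-40894280, minus strand: ggacgtcctcGGGGCGGggcgtggcgt
SP at Gm47513, chr13:64152556-64152582, minus strand: ccccgggcgcGGGGCGGcctggggccc
ETS at Chfr, chr5:110135900-110135925, minus strand: tgcgcggatcCCGGAAccggccttac
ETS at Sec14l1, chr11:117115220-117115245, plus strand: gcccctgtccCCGGAAccggcggtcg
All 9 bases of both NRF1 words and all 8 bases of both CRE words lay within the footprint in each library. Both YY1 words lay next to the footprint, with 0 bases inside it. The SP word at Abhd18 had 5 and 7 of its 7 bases in the footprint and that at Gm47513 had 0 and 0. The ETS word at Sec14l1 had 6 and 6 of its 6 bases inside and that at Chfr had 0 and 1. A match in the window is therefore not always a match in the footprint. These footprints sat at or near a start site, yet 16 to 75 bp from the nearest peak in replicate 1 and 13 to 75 bp in replicate 2.

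The outside footprints hugged the peaks. Their median distance to the nearest peak was 31 bp in replicate 1 and 32 bp in replicate 2, and 83.4% and 83.3% lay within 100 bp. Only 865 and 1239 lay more than 200 bp away. Just 1 footprint of replicate 1 and 7 of replicate 2 were more than 500 bp away, the farthest at 594 and 646 bp. None of them was therefore far from a peak of the longer lists. With the stricter peak lists in their place, the footprints left outside had a median distance to a peak of 248 bp in replicate 1 and 212 bp in replicate 2.

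**Figure D1:**
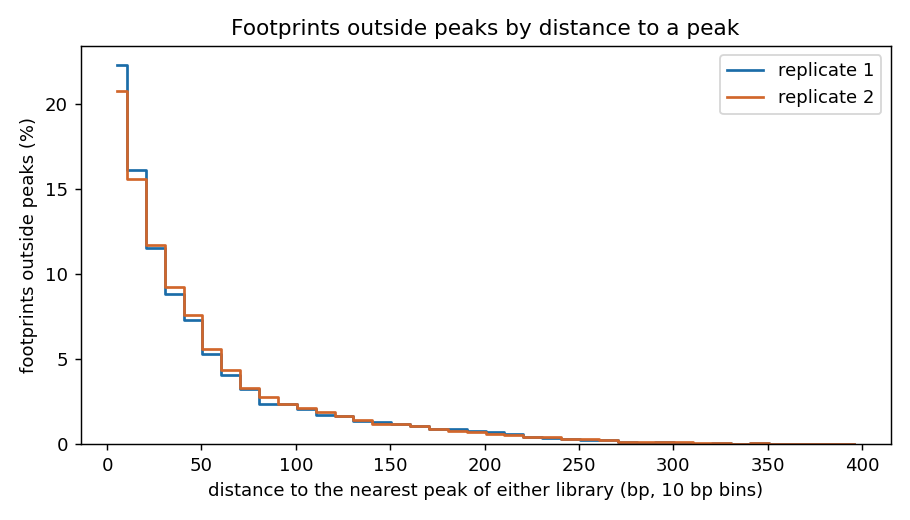
Footprints outside peaks by their distance in bp to the nearest peak of either library, as a percentage of all outside footprints of that library in 10 bp bins up to 400 bp. The blue line is replicate 1 and the orange line replicate 2, with medians of 31 and 32 bp.

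The border drawn by the rule ran through a continuum. At 1 bp from a peak lay 591 outside footprints of replicate 1 and 750 of replicate 2. Just inside, 579 and 751 shared exactly 1 bp with a peak. Outside footprints 1 to 5 bp from a peak numbered 2829 and 3681, with median widths of 11 and 10 bp. Inside footprints that reached over a peak's edge numbered 8870 and 11074 and had a median width of 17 bp in each library. A wide footprint is more likely to touch a peak, so widths on the 2 sides of the border are not independent of the rule.

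Outside footprints were narrow. Their median width was 10 bp in replicate 1 and 9 bp in replicate 2, against 11 bp inside peaks in each. The narrowest class, 7 or 8 bp, held 40.2% and 42.1% of outside footprints, against 33.0% and 33.9% of those inside peaks. At least 20 bp was reached by 11.9% and 11.9% of them, against 23.5% and 23.1% inside. The widest measured 57 and 60 bp outside peaks, against 91 and 111 bp inside.

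Among outside footprints found in both libraries, the 4 of the 5 widest whose sequence is shown here are of different kinds. Capitals mark the footprint of replicate 1, with 10 bases on each side, on the plus strand of GRCm38.
Ppp1r12a intron, chr10:108229620-108229692: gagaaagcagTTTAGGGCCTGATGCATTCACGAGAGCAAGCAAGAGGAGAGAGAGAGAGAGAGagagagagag
Eloa upstream, chr4:136021902-136021971: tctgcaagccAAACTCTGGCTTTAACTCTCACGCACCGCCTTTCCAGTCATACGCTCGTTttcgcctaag
Epm2a intron, chr10:11350626-11350692: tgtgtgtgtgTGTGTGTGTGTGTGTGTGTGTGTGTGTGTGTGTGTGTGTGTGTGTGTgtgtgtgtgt
B330016D10Rik upstream, chr4:141545816-141545881: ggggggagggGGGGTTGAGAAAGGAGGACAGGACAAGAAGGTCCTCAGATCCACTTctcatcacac
The footprint nearest to Ppp1r12a, which encodes a regulatory subunit of myosin phosphatase, had the same ends in both libraries and a width of 53 bp. It was named for the closest start site, 19938 bp away, and 54.7% of its bases were in masked repeats. The footprint in Epm2a, which encodes the glycogen phosphatase laforin, was 47 and 49 bp wide and lay wholly in a TG repeat, with 100% of its bases masked. The footprint upstream of Eloa, which encodes the elongin A subunit of an elongation factor, was 50 and 52 bp wide and held no masked base. It lay 174 bp upstream of the start site and 12 and 13 bp from a peak. Its FDR was 1.93e-193 in replicate 1 and 8.57e-138 in replicate 2, the lowest of these 5 in each library. The fifth of these, of 48 and 47 bp, was in a coding exon of Btbd2, 40 bp from a start site.

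The footprints farthest from any peak in both libraries were short and lay beside strong promoters. Their sequences are printed because no peak covers them in either library. Capitals mark the footprint of replicate 1, on the plus strand of GRCm38.
Prkar1b, chr5:139149485-139149511: ggcctcgcccCTAGCCAtttgccacgc
Dyrk1a, chr16:94568988-94569014: ccggggaaccGGCGCCCgggagcgtgc
Fam76b, chr9:13828218-13828244: tcctccgtgtCGCAGAGattgggtgca
Zdhhc5, chr2:84714728-84714754: aaccgcgggcCGGGGAAggaaggggcg
Fahd1, chr17:24849869-24849895: cccaactccaCCTCGTGgtggaggttg
Each was 7 bp wide in replicate 1 and 7 or 8 bp in replicate 2. The one at Prkar1b, a gene for a regulatory subunit of protein kinase A, was the farthest of these, at 460 and 461 bp from a peak. It lay in an intron 459 bp downstream of a start site. Dyrk1a encodes a protein kinase, and its footprint lay 1009 bp upstream of a start site and 457 and 453 bp from a peak. Zdhhc5 encodes a palmitoyltransferase, and its footprint lay 55 bp from a start site but 437 and 433 bp from a peak. Their nearest peaks had signals of 13.6 to 22.0 in replicate 1 and 10.2 to 17.6 in replicate 2. Peak signal is the authors' value per peak, on a scale that is not stated.

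Outside footprints were promoter footprints for the most part. Within 1 kb of a GENCODE vM21 start site lay 83.9% of them in replicate 1 and 78.7% in replicate 2, against 49.0% and 45.9% of footprints inside peaks. Their median distance to a start site was 143 and 166 bp, against 1110 and 1486 bp inside peaks. With the stricter peak lists the median for outside footprints was 841 and 1083 bp, so the closeness to start sites depends on the list. More than 50 kb from any start site lay 0.737% and 1.31% of outside footprints, against 2.93% and 3.37% inside. The open bases outside peaks are themselves near start sites. Of 41 bp windows there that hold no footprint, 77.0% and 70.5% were within 1 kb.

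The share of footprints that was outside peaks was highest on either side of the start site and low just upstream of it. In the 100 bp just upstream of the start, where footprints are most numerous, 8.71% and 10.3% of footprints were outside peaks. Between 200 and 300 bp upstream the share was 32.5% and 37.0%. Between 100 and 200 bp downstream it was 32.5% and 38.5%. The first 100 bp downstream held the most outside footprints of any bin, 6461 and 8104, against 18550 and 19483 inside peaks.

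**Figure D2:**
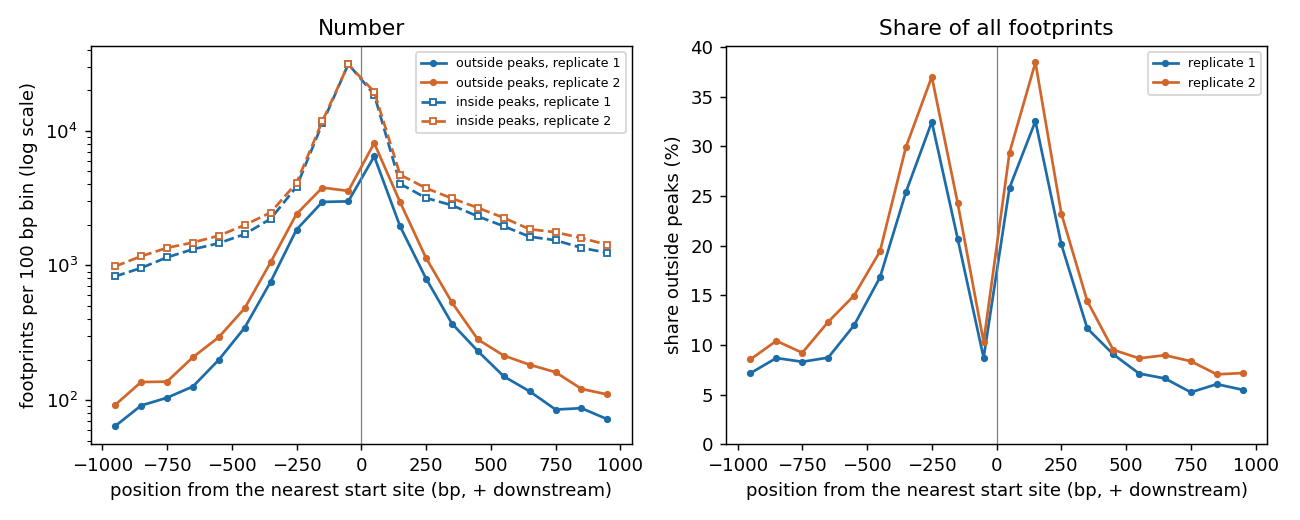
Footprints in 100 bp bins around the nearest start site, with positive positions downstream. Left, numbers on a log axis outside peaks (solid lines, filled circles) and inside peaks (dashed lines, open squares); right, the share of all footprints that is outside peaks, which dips to 8.71% and 10.3% just upstream of the start and is highest in the bins 200 to 300 bp upstream and 100 to 200 bp downstream.

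Outside footprints lay on the transcribed side more often than those inside peaks. Downstream of the start lay 51.7% and 52.7% of those within 1 kb, against 40.1% and 41.8% of footprints inside peaks. Among outside footprints found in both libraries the share was 48.6% and 48.8%, and among those that touched no footprint of the other library it was 57.6% and 56.9%. Relative to their nearest peak, 11560 of 19804 were on the downstream flank in replicate 1 (58.4%) and 14898 of 25968 in replicate 2 (57.4%). Coding exons held the midpoints of 9.85% and 9.96% of outside footprints, against 5.47% and 5.83% inside. Exons outside coding sequence held 37.0% and 33.8%, against 19.6% and 18.3% inside. Introns held 23.0% and 25.5%, against 38.03% and 38.7% inside peaks. These exon and intron shares cover all distances from a start site, and the differences were smaller within 1 kb of one. There coding exons held 10.9% and 11.2% outside, against 7.29% and 8.13% inside. Other exons held 43.1% and 41.4%, against 34.7% and 34.0%, and introns 19.3% and 21.1%, against 26.8% and 27.9%.

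Strong peaks had outside footprints beside them and weak peaks seldom did. Peaks of both libraries were merged into 104484 regions, and 11760 (11.3%) had an outside footprint of replicate 1 nearest to them and 16084 (15.4%) one of replicate 2. Of regions within 1 kb of a start site, 24.6% and 30.4% had one, against 4.05% and 7.29% of other regions. Deciles by signal were formed in each library from only those regions that hold a peak of that library. In the decile of regions with the strongest signal, of 7834 and 8653 regions, 80.7% and 83.8% had an outside footprint. In the weakest 6 deciles the share never exceeded 4.86% in replicate 1 or 8.70% in replicate 2. The strongest decile alone accounted for 16152 and 20491 outside footprints. Within that decile 83.6% and 87.9% of regions near a start site had one, against 53.5% and 55.3% of the others. Regions with an outside footprint had a median width of 200 bp, against 180 bp for those without, in each library. Away from start sites it was 160 bp with one, against 173 bp without, in each library. The part of width and of sequencing depth in these shares was not tested.

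The FDR of the cut-rate track showed how strongly the outside footprints stood above the background rate of cutting. This track lists stretches of bases with the false discovery rate of an excess of cuts, and holds values under 0.05. A footprint was given the median value over its bases on the track. Nearly all outside footprints touched the track of their own library, 99.6% and 99.4%, with 103 and 191 off it. The share was 99.6% and 99.5% inside peaks, so touching the track was not particular to outside footprints. The median FDR was 1.00e-31 in replicate 1 and 9.38e-24 in replicate 2 outside peaks, against 1.92e-10 and 1.50e-08 inside peaks. Stretches of bases that carry outside footprints were thus called open by a wide margin, although no peak covers them.

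The order turned round once footprints were grouped by the strength of the nearest peak. For the strongest decile of peaks the median FDR was 2.35e-43 and 1.76e-36 outside peaks, against 5.04e-85 and 1.03e-72 inside. For the decile below it the values were 3.66e-17 and 1.94e-13 outside, against 7.52e-26 and 1.25e-20 inside. In each of the 10 deciles the median outside peaks was the higher one, in both libraries. The rule bears on this order, since peaks are called where cutting is densest, so it is given as a description. Within 1 kb of a start site it held in 8 of 10 deciles of replicate 1 and all 10 of replicate 2. The lower overall value outside peaks went with their place beside strong peaks, as 69.3% and 63.7% of them had a nearest peak in the strongest decile, against 21.03% and 19.5% of footprints inside. The median signal of the nearest peak was 9.77 and 6.72 outside, against 1.58 and 1.16 inside.

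**Figure D3:**
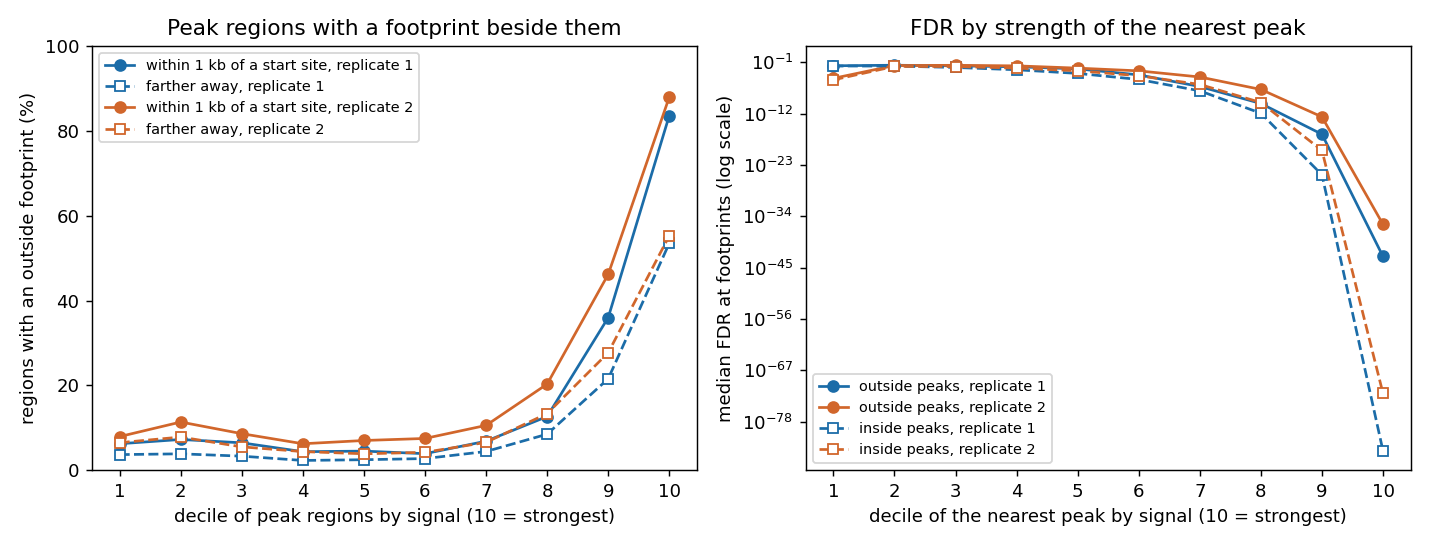
Left, peak regions with at least 1 outside footprint, in percent, by decile of region signal in each library, for regions near a start site (solid) and farther away (dashed); 80.7% and 83.8% of all regions in the strongest decile had one. Right, median FDR on a log axis of footprints outside peaks (solid, filled) and inside peaks (dashed, open) by decile of the nearest peak's signal, with the outside values above the inside values in every decile.

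Widths followed the same groups. In the strongest decile the median width was 11 and 10 bp outside peaks, against 18 and 19 bp inside. In the weakest decile it was 8 and 9 bp on both sides of the border. The difference in width was therefore seen beside strong peaks and not beside the weakest.

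Outside footprints lay on the shoulders of peak-bearing stretches. A stretch is a run of adjoining bases in the track. Of all outside footprints, 23103 in replicate 1 (97.8%) and 32051 in replicate 2 (97.1%) were in a stretch that touches a peak, and only 405 and 767 were in a stretch with no peak. Stretches with an outside footprint had a median length of 842 and 773 bp, against 126 and 104 bp for other stretches with a peak. A longer stretch has more room for a footprint. The shoulders, meaning track bases outside peaks in a stretch with a peak, made up 34.3% and 34.7% of all track bases. They held 2.80 and 3.38 footprints per kb, against 12.4 and 12.5 per kb of track inside peaks. Every footprint touching a peak was counted as inside, also where it reached over the edge onto a shoulder or was off the track. The rule thus raises the density inside peaks and lowers that of the shoulders. Stretches with no peak held 1.63 and 2.27 per kb and had a median length of 4 bp in each library.

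The FDR did not weaken steadily with distance from the peak. It was lowest at 11 to 25 bp, with medians of 1.30e-38 and 2.21e-29, and was 4.04e-35 and 6.07e-26 in the first 10 bp. Beyond 200 bp the medians were 1.86e-20 and 3.36e-15. The share within 1 kb of a start site was 74.1% and 68.3% in the first 10 bp and 93.5% and 91.0% beyond 200 bp. Footprints far from a peak were thus more often at promoters than those next to one.

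The libraries shared a large part of the outside footprints. Of those of replicate 1, 13523 (57.3%) touched an outside footprint of replicate 2. Of those of replicate 2, 13363 (40.5%) touched one of replicate 1. A further 967 and 1106 touched only a footprint inside peaks of the other library. Counting any footprint of the other library, the share was 61.4% and 43.8% outside peaks, against 62.2% and 53.5% inside. Ends were rarely the same, with 2.66% and 1.90% identical in start and end.

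Beside peaks of like strength, outside footprints recurred less often. In the strongest decile 70.1% and 56.9% of outside footprints touched a footprint of the other library, against 85.2% and 86.9% of those inside peaks. In the weakest decile the shares were 1.04% and 0.140% outside, against 7.79% and 1.26% inside. Footprints inside were also wider in the strongest decile, and a wider footprint is easier to touch.

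Recurrent outside footprints were wider and lay beside stronger peaks. Those found in both libraries had a median width of 12 and 13 bp, against 8 and 8 bp for those that touched no footprint of the other library. Recurrence was a touch of at least 1 bp, which a wider footprint reaches more easily, so the definition bears on this order. The median FDR of those found in both libraries was 3.09e-39 and 1.72e-37, against 2.21e-20 and 5.53e-15 for those that recurred in no form. Of these last, 82.3% and 80.1% still touched the track of the other library, so the bases were open there without a footprint call. The nearest peak had a median signal of 11.9 and 9.93 for recurrent footprints, against 6.75 and 4.22 for those that recurred in no form. Replicate 2 had more footprints, inside and outside peaks, and the lower recurrence.

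The DNA was rich in CpG. The window of 50 bp on each side of an outside footprint's midpoint held 7.40 and 6.70 CpG on average, against 4.98 and 4.61 inside peaks and 0.834 over the genome. Within 1 kb of a start site the difference shrank to 8.29 and 7.87 outside peaks, against 7.74 and 7.45 inside. Median GC content was 62.4% and 60.4% outside, against 57.4% and 56.4% inside. Within 1 kb of a start site it was 64.4% and 63.4% on both sides of the peak border, and farther away it was 51.5% and 51.5% outside, against 53.5% and 53.5% inside. At least 50% of the bases were in masked repeats in 9.94% and 10.04% of outside footprints, against 11.2% and 11.8% of those inside, while 36.4% of the genome is masked. This order was the other way round at like distance from genes. Within 1 kb of a start site the share was 8.18% and 7.83% outside, against 7.13% and 7.30% inside, and farther away it was 19.1% and 18.2% outside, against 15.1% and 15.5% inside.

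Motif words of 29 kinds were searched on both strands in the 41 bp centred on each footprint. A match names a sequence, not a bound protein. The words may overlap, as the AP-1 word TGANTCA shares its first bases with the end of the NFE2 word TGCTGANTC. In both libraries 12 of the 29 words were more frequent around outside footprints than in 41 bp tiles of the genome. The GC-rich SP word GGGGCGG was the most common of them, in 6.27% and 5.44% of outside footprints, against 0.155% of tiles. The ETS word CCGGAA was in 2.73% and 2.55%, against 0.284% of tiles. The NRF1 word GCGCNTGCG had a share of 1.13% and 0.900%, against 0.0189% of tiles. Since tiles have far less CpG, windows in the open bases outside peaks are the closer comparison. These windows hold no peak base, while the 41 bp around an outside footprint can reach into a peak. Of outside footprints, 22.3% and 20.7% lay 1 to 10 bp from a peak, and the part of this in the shares was not tested.

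Near start sites the NRF1, CRE and SP words were more frequent around outside footprints than in the footprint-free open bases, and less frequent than inside peaks. This did not hold for every word raised over tiles. The E-box word CAGCTG was in 1.92% and 1.87% of outside footprints there, against 2.33% and 2.42% inside and 1.93% and 1.96% of windows. The NRF1 word was in 1.27% and 1.06% of outside footprints within 1 kb of a start site, against 2.64% and 2.58% inside peaks and 0.261% and 0.234% of footprint-free windows. The CRE word TGACGTCA, bound by CREB and ATF proteins, was in 0.146% and 0.135% outside, against 0.600% and 0.544% inside and 0.0219% and 0.0295% of windows. It rests on 32 and 40 outside footprints in all. The SP word was in 7.01% and 6.46% outside, against 10.6% and 10.2% inside and 2.70% and 2.44% of windows. Mean CpG in the wider window was 8.29 and 7.87 around outside footprints near start sites, against 6.41 and 6.06 around the windows, and its part in these shares was not tested.

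YY1 differed from the other promoter words. Its word AAGATGGC was about as frequent around outside footprints near start sites, in 0.661% and 0.570%, as around those inside peaks, in 0.644% and 0.592%. In the windows it was in 0.165% and 0.166%. Of outside footprints with this word near a start site, 63.4% and 67.6% lay downstream of the start, against 58.9% and 59.5% of those inside peaks. For the SP word the shares downstream were 44.4% and 47.8% outside, against 25.2% and 26.9% inside. For the NFY word CCAATCA, which is known from upstream promoter sites, they were 24.2% and 28.0% outside, against 15.9% and 16.2% inside. The YY1 word rests on 148 and 166 outside footprints in all and the NFY word on 102 and 132. Their shares are thus less precise than those of the SP word.

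**Figure D4:**
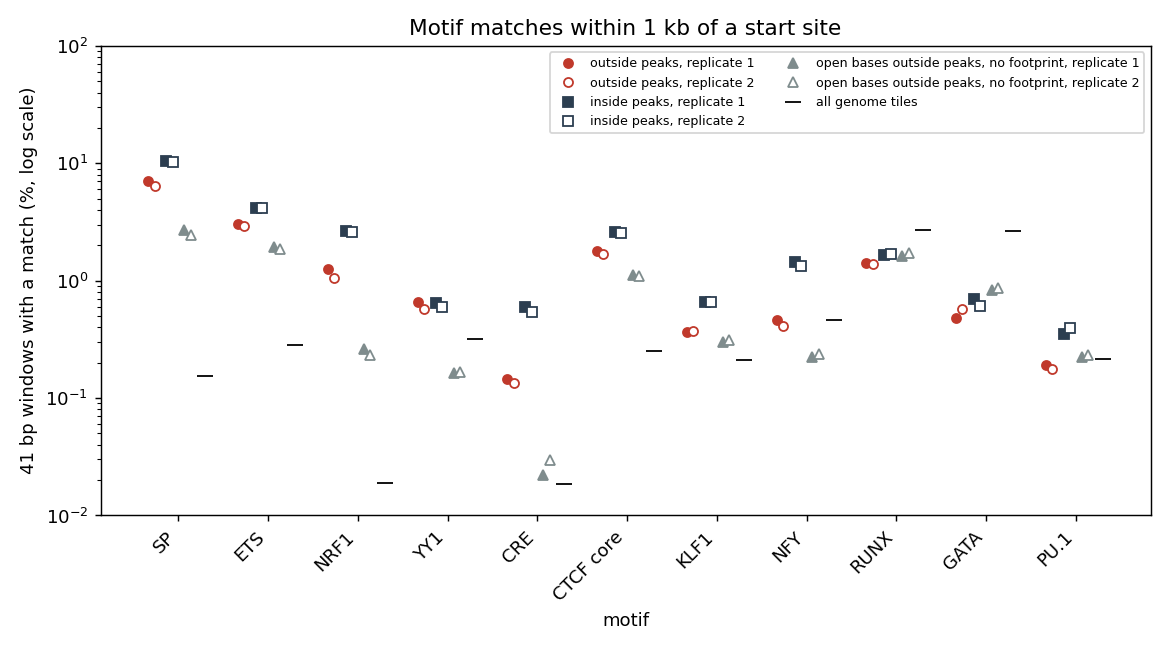
Share of 41 bp windows with a match to 11 motif words on a log axis, within 1 kb of a start site, for footprints outside peaks (circles), footprints inside peaks (squares) and open bases outside peaks with no footprint (triangles), filled for replicate 1 and open for replicate 2; dashes give all tiles of the genome. The CRE, NRF1 and YY1 words are the ones farthest above the triangles, and YY1 alone among these 3 is level with the squares.

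Words of the blood cell factors GATA, KLF1 and PU.1 were less frequent outside peaks than inside. The GATA word AGATAA was in 0.754% and 0.827% of outside footprints, against 1.54% and 1.30% inside peaks and 2.66% of tiles. The word CCACACCC bound by KLF1, an activator of red cell genes, was in 0.402% and 0.409% outside, against 0.901% and 0.860% inside and 0.210% of tiles. The PU.1 word GAGGAAGT was in 0.199% and 0.227% outside, against 0.513% and 0.542% inside and 0.214% of tiles. The KLF1 word was thus above its share of tiles in both libraries, the GATA word was below it, and the PU.1 word was close to it. In the footprint-free open windows outside peaks the KLF1 word was in 0.335% and 0.337%, slightly less than around outside footprints. The GATA word was in 1.05% and 1.14% of these windows and the PU.1 word in 0.244% and 0.252%, more than around outside footprints. The EBF word CCCNNGGGA, of a B cell factor, was in 1.10% and 1.24% outside, against 1.20% and 1.30% inside and 0.320% of tiles. It was in 1.06% and 1.01% of the footprint-free windows, so most of its excess over tiles was shared by the open bases around. More than 1 kb from a start site the GATA word was in 2.15% and 1.75% of outside footprints, against 2.34% and 1.88% of those inside. The CTCF core word CNAGGNGGC was there in 1.21% and 1.09% of those outside, against 4.21% and 3.77% inside.

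Of 21938 protein-coding genes, 8066 (36.8%) had an outside footprint of each library within 5 kb of a start site, and 14748 (67.2%) had one inside peaks of each. Among genes with footprints inside peaks, 54.7% had outside footprints as well. The tissue was checked with the inside footprints, present in both libraries for all 32 red cell genes and all 20 B cell genes examined. They were also present for 18 of 20 myeloid genes and 9 of 10 neuron genes, against 9 of 15 T cell genes and 2 of 12 hepatocyte genes. Their presence thus does not by itself set spleen genes apart from those of other tissues.

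Housekeeping and cell cycle genes carried outside footprints most often among the lists. All 18 housekeeping and all 14 cell cycle genes had footprints inside peaks in both libraries. Of all protein-coding genes with these, 54.7% had outside footprints in both libraries, and of all protein-coding genes 36.8%. Of 18 housekeeping genes, 16 (88.9%) had an outside footprint in each library, led by Ywhaz, a 14-3-3 adaptor protein, with 12 and 12. Eef2, a translation elongation factor, had 9 and 7, and Actb, cytoplasmic actin, had 6 and 12. Of 14 cell cycle genes, 11 (78.6%) had one in each. Cdk1, the mitotic kinase, had 5 and 7, Mcm2, a subunit of the replicative helicase, had 6 and 5, and E2f1, a transcription factor of the G1 to S transition, had 5 and 4.

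Of the 32 red cell genes, 18 (56.3%) had outside footprints of both libraries, a share near the 54.7% of all genes with footprints inside peaks. Zfpm1, the GATA1 partner FOG1, had 12 and 12, and Epb41, which anchors the skeleton under the red cell membrane, had 9 and 11. Alas2, Epb42, Hba-a2 and Hbb-bs, chosen after their values were seen, had 0 and 0, although each had at least 7 footprints inside peaks in each library. Alas2 catalyses the first step of red cell haem synthesis and had 13 and 10 inside. Globin copies are near-identical, so their counts are uncertain.

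At B cell and stem cell genes the share with outside footprints was near the 36.8% of all protein-coding genes. It was below the 54.7% of genes with footprints inside peaks, which all 20 B cell and all 14 stem cell genes had in both libraries. Of 20 B cell genes, 7 (35.0%) had them in both libraries, among them the transcription factors Pax5, with 2 and 4, and Ebf1, with 2 and 3, and Cd74, the invariant chain, with 2 and 2. Within 1 kb of a start site Ebf1 had 2 and 0, so its call in both libraries depends on the 5 kb window. Of 14 stem cell genes, 5 (35.7%) did, led by the transcription regulators Lyl1 with 4 and 10, Mllt3 with 4 and 4, and Runx1 with 5 and 3. Of 20 myeloid genes, 1 did, Cd68, a lysosomal protein of macrophages, with 5 and 5. None of these lay within 1 kb of a Cd68 start site, where it had 0 and 0. Footprints inside peaks were nevertheless present for 18 of those 20 genes. The T cell and hepatocyte lists had 0 of 15 and 0 of 12. Of 12 megakaryocyte genes 2 had them, as did 2 of 10 endothelial genes, 2 of 13 stroma genes and 3 of 10 neuron genes. The 3 neuron genes, Dlg4, Elavl3 and Gad1, also had 0 and 0 within 1 kb, so these calls depend on the 5 kb window.

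**Figure D5:**
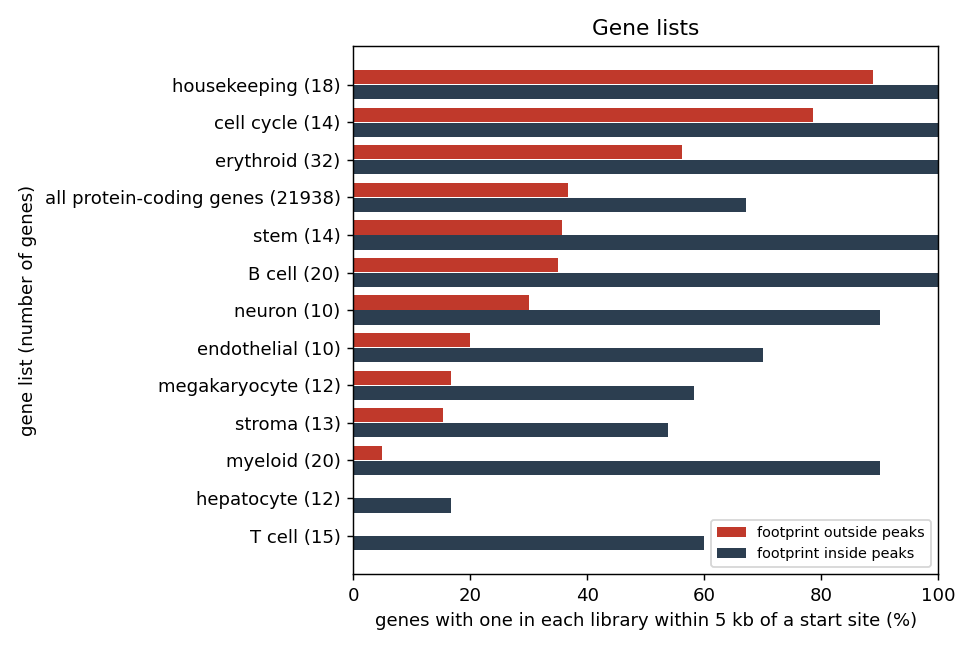
Share of the genes of each list, in percent, with a footprint of each library within 5 kb of a start site, outside peaks (red, upper bar) and inside peaks (dark, lower bar); the number of genes stands beside each name. Outside footprints span 88.9% of housekeeping genes to 0% of T cell and hepatocyte genes, with 36.8% of all protein-coding genes.

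The genes with the most recurrent outside footprints were Cic, a transcriptional repressor (chr7:25267704-25294159), with 14 in replicate 1 and 15 in replicate 2, and Nsun2, an RNA methyltransferase (chr13:69533746-69635780), with 14 and 13. Crlf2, a cytokine receptor subunit (chr5:109554709-109558993), had 13 and 14. Next came Brpf1, H2-DMa, Pip5k1c, Safb and Sp4, with 11 to 15 recurrent footprints per library. Plcb3 and Ppp1r14b, both with 11 and 11, overlap on chromosome 19, so their windows can count the same footprints. At Brpf1, a chromatin reader, all outside footprints came to 14 and 14, against 9 and 6 inside peaks. At Cic they came to 19 and 36, against 83 and 137 inside.

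Joined across libraries where gaps were under 500 bp, outside footprints formed 16550 groups. Of these, 8144 (49.2%) had footprints of both libraries, and the median group had 2 per library where it had any. No grouping of footprints inside peaks was set beside this, so clustering beyond their place around peaks was not tested. The richest was at Sp4, which encodes a member of the SP family, with 17 in each library over 1468 bp (chr12:118301081-118302548). It was interrupted by 2 peak regions. Next was Zc3h4, which encodes a zinc finger protein that restrains noncoding transcription, with 15 and 20 over 2499 bp (chr7:16399756-16402254) around 3 peak regions. Nsd1, a histone methyltransferase, had 14 and 14 over 1059 bp (chr13:55210846-55211904). The group shared by Gm43935 and Brpf1 had 14 and 14 over 841 bp (chr6:113306356-113307196) around 1 peak region. The other 6 of the 10 richest lay at 4930481B07Rik, Fam120aos, Mpc2, Zbtb5, Rsrp1 and Prkar1b, with 11 to 15 per library, and the midpoints of all 10 were within 375 bp of a start site.

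Chromosomes differed little. The share of footprints outside peaks on autosomes ran from 9.28% to 11.8% in replicate 1 and from 11.3% to 14.3% in replicate 2. On the X chromosome it was 7.64% and 9.56%, below every autosome in each library. The Y chromosome had only 11 and 14 outside footprints.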

How the data were processed

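DNase-seq of 2 spleen libraries was used. Per the listing deposited with the files, peaks, footprints and cut-rate tracks were made by the authors for each library alone on mm10 (GRCm38). Neither the programs nor their versions are given in the sources used here. The deposited FDR (q-value) of the track holds values under 0.05, and that of footprints is 0.01 in every line. Peak signal is the authors' deposited signal, of unstated scale. Read totals were not used, so depth is unknown and no counting interval is given.

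Footprints were compared with 80323 and 88723 peaks of the longer lists, with a minimum overlap of 1 bp. Positions were midpoints, and start sites were those of all 132721 transcript starts of GENCODE M21. Masked bases and sequences came from the RefSeq GRCm38 genome (patch release p6). Motif windows were 41 bp, and composition windows reached 50 bp to each side. Shoulder windows held no footprint. Interval and motif functions were tested on simulated intervals and by a second search. Python 3.11.15, numpy 2.4.6, pandas 2.3.3 and matplotlib 3.10.9 were used. The members, the 12 gene lists and the 29 motif words were chosen with earlier results of these data known. Named were the 10 genes and 10 groups with the most outside footprints by the lower library, the 5 widest and 5 farthest found in both libraries, up to 3 genes per list with the most, and the 2 nearest to a start site per motif raised over genome tiles, of which a selection is printed. Results for some listed genes are not reported here. Alternatives were the shorter peak lists, own-library peaks, a 100 bp gap, autosomes alone, other overlaps, start sites, FDR limits and repeat definitions, and each library alone. Grouping by peak signal was added after seeing the data.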

Additional observations from a re-analysis of the deposited data

How the results depend on the processing

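Of 61 alternatives, 36 kept their value, within 1 SD of the libraries or, for counts, within 1.5 times, and 25 moved it. With 2 libraries, each alone always lies within 1 SD of their mean. For shares and medians those alternatives were therefore kept by arithmetic. A large SD also keeps a value, as for the recurrent share, at 39.5% with own-library peaks against 48.9% (SD 11.9). All are levels of outside footprints, and comparisons with footprints inside peaks were not rerun under them. With the stricter peak lists 28.5% of footprints were outside, at a median of 230 bp from a peak and 962 bp from a start site, with 30.9% recurrent, 98.5% on the track and 13.9% in masked repeats. With own-library peaks alone these were 14.9% outside, 35 bp from a peak and 10.2% masked. At 100 bp or more from a peak, 2.02% of footprints remained outside, 150.5 bp from a peak and 199.5 bp from a start site, with 99.8% on the track and 8.24% masked. Protein-coding start sites alone gave a median of 192.5 bp. Overlap of 50% of both footprints gave 35.9% recurrent and identical ends 2.28%. Of outside footprints, 94.1% or 91.3% touched the track at an FDR of at most 0.01 or 0.001. Masked share was 9.84% on autosomes, 6.77% with every base masked and 12.4% with any. A 50 kb window gave 12896 genes, and each library alone gave 8796 to 10060 genes and 12 to 15 raised motif words. Chosen after seeing the data, footprints within 1 kb of a start site gave 34.5 bp from a peak and 8.0% masked. No paired analysis was possible because there was 1 group.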
